A study of Mus musculus with 2 samples.

Results

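Innate immune sensors of nucleic acids and of microbial products were followed through the immune infiltrate of a mouse glioma. The set held 10 genes of the 31053 in the count matrices: the cytosolic RNA sensors Ddx58 (RIG-I) and Ifih1 (MDA5), the Z-form nucleic acid sensor Zbp1, the cyclic dinucleotide receptor Tmem173 (STING), the endosomal Toll-like receptors Tlr3, Tlr7, Tlr9 and Tlr13, and the surface receptors Tlr2 and Tlr4. Members were matched by gene symbol, and all 10 had counts in both libraries. WT mice and heterozygous CD169-DTR mice, all 8 to 12 weeks old males on a C57BL/6 background, received 100000 GL261 glioma cells in the brain and diphtheria toxin (DT) on days -1 and 4, so that the WT group carried the toxin too. CD169-DTR mice express the toxin receptor from the locus of CD169 (Siglec1), and DT therefore depletes cells that express CD169. On day 10, live CD45.2+ cells of 3 mice per genotype were pooled, sorted and run as 1 droplet 3′ library per genotype, which gave 10107 WT and 7604 CD169-DTR cells with at least 1000 UMIs (unique molecular identifiers, each standing for 1 captured transcript) and at most 17% mitochondrial UMIs.

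With 1 library per genotype no difference between genotypes could be tested, and genotype, pool and library cannot be told apart. Levels are UMIs of a gene per 1000000 UMIs of a class (CPM), and the intervals given are exact 95% intervals that cover counting error only. The libraries held 101808996 and 84065489 UMIs, with medians of 7776 and 8099.5 UMIs per cell, and shared 21 of their cell barcodes. Classes were rebuilt here by clustering on genes other than the members and named from marker genes, which gave 4725 WT and 5353 CD169-DTR microglia, 2276 and 735 macrophages and 817 and 194 Cd209a dendritic cells (DCs). The gate also let through 401 and 278 endothelial and 154 and 173 choroid plexus cells, which do not make CD45. In macrophages, the targeted gene Siglec1 stood at 38.2 and 12 CPM in WT and CD169-DTR. A list of 29 interferon-stimulated genes that contained no member stood at 17743 against 7818 CPM in macrophages and at 7498 against 5388 CPM in microglia. All 29 of its genes were higher in WT in both classes. By a log2 ratio of at least 0.5, 28 were higher in macrophages and 21 in microglia, where 10.5% and 4.63% of genes were. A list of 15 early response genes, which can be induced by tissue handling, stood at 15481 against 13007 CPM in macrophages and 8779 against 11141 CPM in microglia. The part of handling in the results below was not tested.

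Toll-like receptors bind lipids, lipoproteins or nucleic acids at the cell surface or in endosomes and signal through the adaptors MyD88 and TRIF, while RIG-I and MDA5 bind double-stranded RNA in the cytosol and signal through MAVS. STING is the receptor for the second messenger that cGAS makes on cytosolic DNA, and ZBP1 binds Z-form nucleic acids and can engage RIPK3. These routes lead to NF-κB target genes and to type I interferon, and Ddx58, Ifih1 and Zbp1 are themselves known interferon-stimulated genes, so that they act both as sensors and as outputs of interferon signaling.

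By the GENCODE M21 annotation of GRCm38, the build of the files (mm10), Ddx58 lies at chr4:40203773-40239828 on the minus strand, Ifih1 at chr2:62595798-62646255 (minus), and Zbp1 at chr2:173206612-173218923 (minus). Tlr3 lies at chr8:45395665-45411080 (minus), Tlr7 at chrX:167304929-167330558 (minus), Tlr9 at chr9:106222598-106226883 (plus), Tlr13 at chrX:106143204-106160493 (plus), Tlr2 at chr3:83836272-83841767 (minus) and Tlr4 at chr4:66827584-66930284 (plus). Only Tlr3 is overlapped by another annotated gene, Gm45542, on the opposite strand. Promoter sequences of RefSeq (GRCm38.p6) were at hand for 6 members, but not for Zbp1, Tmem173, Tlr4 or Tlr7, which were not searched. The 120 bases before the start site are shown for Ddx58, Ifih1 and Tlr9. Stretches of the other members with a sequence ran further into their annotated gene and were left out. Ddx58, Ifih1 and Tlr9 are also, with Zbp1, the members past a log2 ratio of 0.5 between genotypes in macrophages (below). Of the bases shown, 3 of Ddx58 lie inside its annotated gene. The sequences read 5′ to 3′ on the strand of the gene, and capitals mark the short interferon regulatory factor core AANNGAAA on either strand.
Ddx58, chr4:40239826-40239945 minus strand: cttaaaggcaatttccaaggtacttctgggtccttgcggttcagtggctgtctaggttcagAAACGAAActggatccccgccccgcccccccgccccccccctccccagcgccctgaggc
Ifih1, chr2:62646256-62646375 minus strand: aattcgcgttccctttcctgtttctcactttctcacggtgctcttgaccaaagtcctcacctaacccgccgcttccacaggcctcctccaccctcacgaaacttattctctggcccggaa
Tlr9, chr9:106222478-106222597 plus strand: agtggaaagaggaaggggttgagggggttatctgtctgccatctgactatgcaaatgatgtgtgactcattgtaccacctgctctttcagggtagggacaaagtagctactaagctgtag
Over the 250 bases before each start, this core was found in Ddx58, Tlr2 and Tlr3 and in 23.9% of the 27025 genes with a promoter sequence. The window of Tlr3 lies inside its annotated gene, and that of Tlr2 lies partly inside, so not all of these matches are upstream of the annotated gene. The longer interferon-stimulated response element core, GAAA repeated after any 2 bases on either strand, contains this core and was found in none of the 6 members, in 13 of the 23 interferon-stimulated genes of the list that had a sequence and in 3.46% of all genes. The palindrome TTCNNNGAA, bound by STAT factors, was likewise in none of the 6 members, in 5 of the 23 and in 8.13% of all. A match is a string of letters only, and its absence says only that these letters are not in this window.

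The sensors fell into different patterns over the 12 classes compared (the plot of levels by class). Zbp1 was highest in macrophages, at 692 CPM (95% interval 680.5 to 705) in WT and 305 CPM (95% interval 294 to 316) in CD169-DTR. Its next classes in WT were granulocytes (615 CPM), Cd209a DCs (570.0 CPM), T cells (509 CPM) and NK cells (433 CPM). Granulocytes and Cd209a DCs overlapped in their intervals, as did NK cells and type 1 conventional DCs. Microglia carried less Zbp1, 188 CPM in WT and 130.0 CPM in CD169-DTR, and the choroid plexus cells caught by the sort carried 18.5 and 15.9 CPM. Droplets with no cell (10 to 100 UMIs) held free Zbp1 RNA at 452 and 152 CPM, and the free RNA per droplet, estimated from microglial markers in T and NK cells, was 298 and 229 UMIs.

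**Figure D1:**
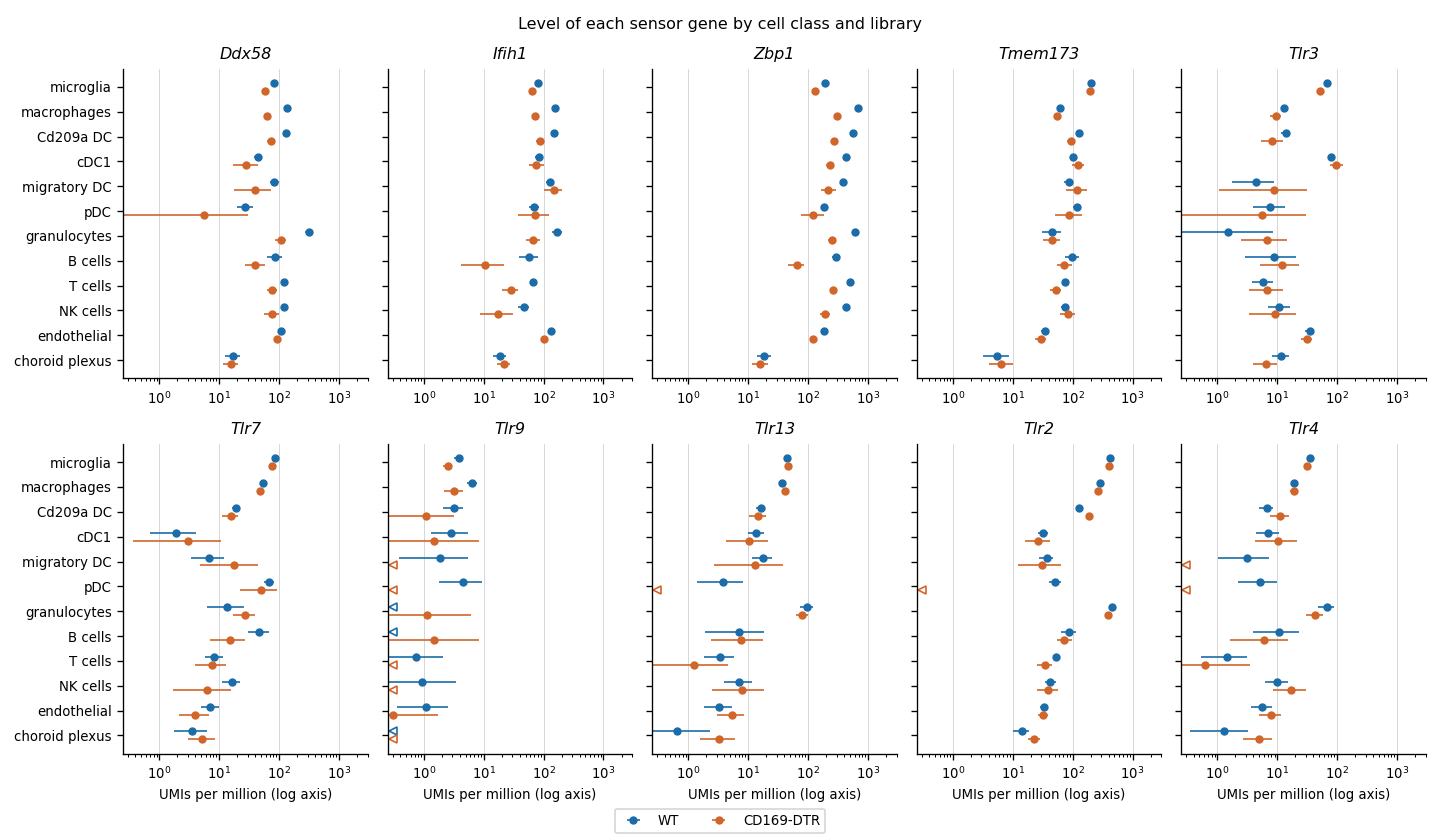
Level of each of the 10 sensor genes (CPM, log axis) in 12 cell classes, 1 point per library (WT blue, CD169-DTR orange) with its exact 95% counting interval; open triangles at the left edge mark classes with no UMI. Zbp1, Ddx58 and Ifih1 lie further right in WT in most immune classes, while Tmem173, Tlr7, Tlr13 and Tlr2 nearly coincide in microglia and macrophages.

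Ddx58 was highest in granulocytes, at 311 CPM in WT and 107 CPM in CD169-DTR, followed in WT by macrophages at 134 and Cd209a DCs at 130.0 CPM, which did not differ beyond their intervals. Microglia held 80.9 and 58.7 CPM in WT and CD169-DTR. In CD169-DTR endothelial cells (93.1 CPM), T cells (76.1 CPM) and macrophages (61.9 CPM) followed the granulocytes, each class overlapping its neighbour in the order. Ifih1 was at 165 CPM in WT granulocytes, 155 in WT macrophages and 149 in WT Cd209a DCs, with overlapping intervals. In CD169-DTR it was highest in the 14 migratory DCs, at 148 CPM (95% interval 102 to 207), and in endothelial cells (103 CPM), which overlapped, and macrophages held 71.7 CPM. By level alone, macrophages came second for both RNA sensors in WT and lower in the order in CD169-DTR. In each case their interval overlapped that of a neighbouring class, so these ranks are not settled beyond counting error.

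Tmem173, which lies at chr18:35733679-35740554 on the minus strand, had a different order. It was highest in microglia, 202 CPM in WT and 194 CPM in CD169-DTR, at 3.29 and 3.58 times its macrophage level of 61.4 and 54.2 CPM. The DC classes came next in WT, with 127 CPM in Cd209a DCs, 116 in plasmacytoid DCs and 102 in type 1 conventional DCs, neighbours whose intervals overlapped. Choroid plexus cells were lowest, at 5.43 and 6.49 CPM.

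Of the endosomal receptors, Tlr3, which binds double-stranded RNA, was high in type 1 conventional DCs (79.8 CPM in WT and 96.9 CPM in CD169-DTR) and in microglia (67.5 CPM in WT and 52.6 CPM in CD169-DTR). Endothelial cells followed with 34.7 and 30.9 CPM, and macrophages had only 13 and 9.52 CPM. Tlr7, a receptor for single-stranded RNA, was highest in microglia (84.2 CPM in WT and 76.7 CPM in CD169-DTR), with plasmacytoid DCs (68.3 CPM in WT and 49.2 CPM in CD169-DTR) overlapping them in both libraries. Macrophages held 53.8 and 47.8 CPM of Tlr7 and type 1 conventional DCs 1.89 and 2.98 CPM. The high Tlr3 and low Tlr7 of type 1 conventional DCs was thus the reverse of plasmacytoid DCs, where Tlr3 gave 12 UMIs in WT and 1 in CD169-DTR. Tlr13, which binds bacterial ribosomal RNA, was highest in granulocytes (94.1 CPM in WT and 80 CPM in CD169-DTR), then microglia (43.7 and 47 CPM) and macrophages (36.4 and 40.5 CPM), which did not overlap. Tlr9, the receptor for unmethylated CpG DNA, was scarce everywhere. It gave 119 and 31 UMIs in macrophages (6.44 and 3.17 CPM), 163 and 130 in microglia (3.8 and 2.5 CPM), 7 and 0 in plasmacytoid DCs and 0 and 1 in B cells. The 0 UMIs in 14 CD169-DTR plasmacytoid DCs allow, as 3 counts over these cells, a share of cells with a UMI of up to 21.4%.

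Of the surface receptors, Tlr2, which senses lipoproteins together with TLR1 or TLR6, was highest in granulocytes (454 CPM in WT and 394 CPM in CD169-DTR) and microglia (414 CPM in WT and 398 CPM in CD169-DTR), which overlapped in both libraries. Macrophages held 284 and 262 CPM and Cd209a DCs 126 and 188 CPM. Tlr4, the lipopolysaccharide receptor, was highest in granulocytes (66.8 CPM in WT and 42.2 CPM in CD169-DTR), with 35.1 and 31.6 CPM in microglia and 19.1 and 19.2 CPM in macrophages. Granulocytes and microglia overlapped for Tlr4 in CD169-DTR only. In T cells Tlr2 stood at 53.5 and 34.3 CPM, and at 14.1 and 10.5 CPM once the 8% of cells with the highest doublet scores in each library were left out. Summed microglial markers in T cells were 1387 and 1071 CPM, and 503 and 311 CPM without those cells, so that Tlr2 and these markers were lower together.

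Between macrophages and microglia of the WT library, 4 members were higher in macrophages by a log2 ratio of at least 0.5 (19.9% of the 13189 genes measured were) and 5 were lower (44.2% of genes). The log2 ratio of macrophages over microglia was 1.88 (95% interval 1.84 to 1.92) for Zbp1, 0.95 (95% interval 0.87 to 1.02) for Ifih1, 0.76 (95% interval 0.41 to 1.11) for Tlr9 and 0.73 (95% interval 0.66 to 0.81) for Ddx58. It was -2.38 (95% interval -2.57 to -2.19) for Tlr3 and -1.72 (95% interval -1.81 to -1.63) for Tmem173, and -0.88, -0.65 and -0.54 for Tlr4, Tlr7 and Tlr2, with Tlr13 at -0.26. The median of all genes was -0.36, and relative to it Tlr2 and Tlr7 no longer passed and Tlr13 changed sign. With every cluster of a class weighted equally, Ddx58 (0.45) and Tlr9 (0.24) did not pass. In CD169-DTR the ratio was 1.23 (95% interval 1.17 to 1.29) for Zbp1, 0.17 (95% interval 0.05 to 0.29) for Ifih1 and 0.08 (95% interval -0.05 to 0.20) for Ddx58. For Tlr3 it was -2.47 (95% interval -2.78 to -2.17) and for Tmem173 -1.84 (95% interval -1.97 to -1.71). The gap between the classes was narrower in CD169-DTR for Ddx58, Ifih1 and Zbp1, whose intervals did not overlap those of WT, while the intervals of Tlr3 and Tmem173 did.

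The comparison of WT with CD169-DTR asks what the infiltrate looks like when cells expressing CD169 are depleted. In macrophages, 4 of the 10 members were higher in WT by a log2 ratio of at least 0.5, where 10.5% of the 11748 genes measured were, and none was lower by as much, where 10.2% of genes were. Zbp1 stood at 692 CPM in WT and 305 CPM in CD169-DTR, a log2 ratio of 1.18 (95% interval 1.12 to 1.24). Ddx58 stood at 134 CPM in WT and 61.9 CPM in CD169-DTR, a log2 ratio of 1.12 (95% interval 0.99 to 1.25). Ifih1 stood at 155 CPM in WT and 71.7 CPM in CD169-DTR, a log2 ratio of 1.11 (95% interval 0.99 to 1.23). Each of these genes was more than 2-fold higher in WT. Tlr9 was higher as well, with a log2 ratio of 1.02 (95% interval 0.44 to 1.64), but it rests on 31 UMIs in CD169-DTR. Tlr3 came next at 0.45 (95% interval 0.10 to 0.81). Tmem173 (0.18), Tlr7 (0.17), Tlr2 (0.12), Tlr4 (-0.01) and Tlr13 (-0.15) lay within 0.2 of 0. The interval of Tlr4 ran from -0.27 to 0.25 and that of Tlr13 from -0.34 to 0.03. Summed microglial markers in macrophages were 1809.8 CPM in WT and 2135 CPM in CD169-DTR, and 759 and 1580.1 CPM without the top 8% of doublet scores, where the count of members was 4 as well. The median of the members was 0.31, against -0.05 for all genes.

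**Figure D2:**
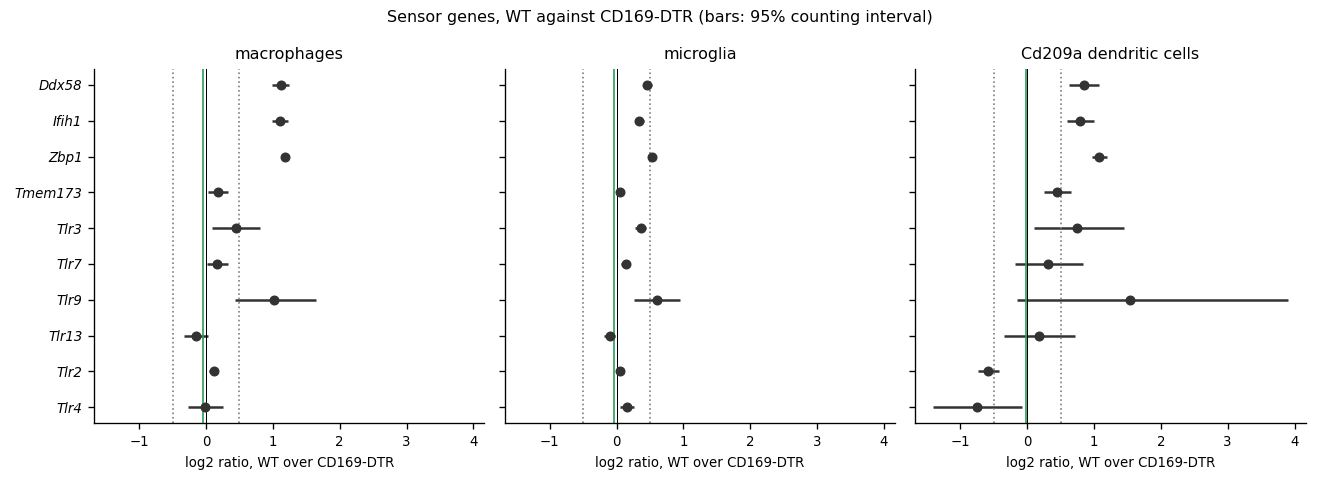
Log2 ratio of WT over CD169-DTR for the 10 sensor genes in macrophages, microglia and Cd209a DCs, with exact 95% counting intervals as bars; dotted lines mark 0.5 on either side of 0 and the green line the median of all genes. Zbp1, Ddx58 and Ifih1 lie above 1 in macrophages and between 0.34 and 0.53 in microglia, and Tlr2 and Tlr4 lie below 0 in Cd209a DCs.

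In microglia the same direction was smaller. Tlr9 and Zbp1, 2 of the 10 members, passed a log2 ratio of 0.5, both higher in WT, where 4.63% of 13728 genes were higher and 5.51% lower by as much. Zbp1 stood at 188 CPM in WT and 130.0 CPM in CD169-DTR, a log2 ratio of 0.53 (95% interval 0.49 to 0.58). Ddx58 followed at 0.46 (95% interval 0.39 to 0.53), Tlr3 at 0.36 (95% interval 0.28 to 0.43) and Ifih1 at 0.34 (95% interval 0.27 to 0.41). Tlr4 (0.15), Tlr7 (0.14), Tlr2 and Tmem173 (both 0.06) and Tlr13 (-0.10) lay closer to 0, with intervals that left out 0 at counts above 1000 UMIs per library. Tlr9 was at 0.60 (95% interval 0.26 to 0.95) on 163 and 130 UMIs. The call of Zbp1 was lost with free RNA subtracted (0.47) or clusters weighted equally (0.42), and that of Tlr9 without the Cxcl13 cluster (0.46). The median of the members was 0.25, against -0.04 for all genes.

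Cd209a DCs, of which CD169-DTR had 194 cells, joined higher cytosolic sensors to lower surface receptors. In WT, 5 members were higher by at least 0.5, where 11.8% of 10445 genes were, and 2 were lower, where 12.4% of genes were. Zbp1 was at 1.08 (95% interval 0.97 to 1.19), Ddx58 at 0.85 (95% interval 0.63 to 1.07) and Ifih1 at 0.79 (95% interval 0.59 to 0.99), and Tlr3 and Tlr9 rested on 23 and 3 UMIs in CD169-DTR. Tlr2 stood at 126 CPM in WT and 188 CPM in CD169-DTR, a log2 ratio of -0.58 (95% interval -0.73 to -0.43), and Tlr4 at 6.62 and 11.2 CPM, a log2 ratio of -0.76 (95% interval -1.41 to -0.08) on 59 and 31 UMIs. With equal weight per cell Tlr2 stood at -0.30 and Tlr4 at 0.054, so that neither passed and Tlr4 turned in sign. Cd14, the co-receptor of TLR4, stood at 74.9 and 204 CPM in the same cells. Summed microglial markers were 1381 and 1746 CPM there, so Tlr2 and these markers were both higher in CD169-DTR, and their part in the difference was not tested.

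Over all 12 classes, Zbp1 was higher in WT in 12 of the 12 where it could be measured (at least 20 UMIs, and at least 1 in each library), with an interval above 0 in 10. Ddx58 was higher in 12 of 12, with an interval above 0 in 8, and Ifih1 in 9 of 12, with 8 above 0. In granulocytes the log2 ratio was 1.55 (95% interval 1.19 to 1.91) for Ddx58, 1.31 (95% interval 0.84 to 1.79) for Ifih1 and 1.30 (95% interval 1.06 to 1.54) for Zbp1, where the median of all genes was -0.13. In T cells, where the median of all genes was 0.10, they were 0.66, 1.26 and 0.96, and in NK cells 0.67, 1.45 and 1.17. In choroid plexus cells, where the interferon list stood at 1027 and 938 CPM, they were 0.12 (95% interval -0.47 to 0.71), -0.21 (95% interval -0.74 to 0.32) and 0.22 (95% interval -0.35 to 0.80). All classes come from the same 2 libraries and are not separate replicates of the comparison.

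Within macrophages the level of the interferon-linked sensors differed by cluster. The cluster led by Ly6c2, Plac8 and Ifit1bl1, with monocyte genes, held Zbp1 at 1111 and 687 CPM, Ifih1 at 260.4 and 171 CPM and Ddx58 at 223 and 142 CPM in WT and CD169-DTR. The cluster led by Gpnmb, Fabp5 and Ms4a7, with Arg1 and Spp1 also among its leading genes, held Zbp1 at 378 and 193 CPM. That led by Ear2, Hp and Adgre4, with Treml4, F13a1, Ace and Chil3 also among its leading genes, held it at 296 and 186 CPM. The cluster led by Clec4e, Cxcl2 and Thbs1 lay between, at 643 and 323 CPM, and had the most Tlr2 of the macrophages, 474 and 617 CPM. The WT to CD169-DTR difference was seen in each cluster: Zbp1, Ddx58 and Ifih1 were higher in WT in 4 of 4. For Zbp1 the log2 ratio was 0.97 (95% interval 0.86 to 1.07), 0.69 (95% interval 0.61 to 0.78), 0.67 (95% interval 0.44 to 0.90) and 0.99 (95% interval 0.84 to 1.15) in the Gpnmb, Ly6c2, Ear2 and Clec4e clusters. For Ddx58 it ran from 0.59 to 0.94 and for Ifih1 from 0.61 to 0.88. Each was below the value of the whole class, and the Ly6c2 cluster held 896 of 2276 WT and 185 of 735 CD169-DTR macrophages. The Gpnmb cluster differed in depth, with medians of 4987.5 UMIs in 962 WT cells and 16961 in 305 CD169-DTR cells, and without it Zbp1 stood at 1.03. Tlr7, Tlr13, Tlr2, Tlr4 and Tmem173 had no such common direction over the 4 clusters.

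Microglia clusters ordered the sensors differently. The cluster led by P2ry12, Slc2a5 and Sox4, with homeostatic genes, had the most Tmem173 (322 and 306 CPM) and the most Tlr4 (49.5 and 45.3 CPM), the least Zbp1 (36.2 and 23.5 CPM) and the least Tlr2 (128 and 143 CPM). The cluster led by Cxcl13, Ifnb1 and Cxcl10 had the most Tlr3 (153 and 136 CPM), Ddx58 (167 and 150.2 CPM), Ifih1 (212 and 192 CPM) and Zbp1 (378 and 329.6 CPM), with Tlr2 at 686 and 629 CPM. The cluster led by Spp1, Cd5l and Igf1 had the least Tlr3 (27.5 and 19.6 CPM) and the least Tmem173 (83.8 and 90.5 CPM). That led by Il1a, Atf3 and Ccl4 had as much Tlr2, 648 and 635 CPM, but Zbp1 at only 131 and 93.8 CPM. Tlr7 was much the same in the P2ry12 and the Cxcl13 clusters (94.8 and 95.9 CPM against 96.1 and 98.4 CPM). Zbp1 was higher in WT in 9 of 9 microglia clusters, with log2 ratios between 0.16 and 0.66, and Tlr3 in 9 of 9, between 0.13 and 0.61. Clusters were drawn from the expression of the same cells, so their differences are descriptions.

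**Figure D3:**
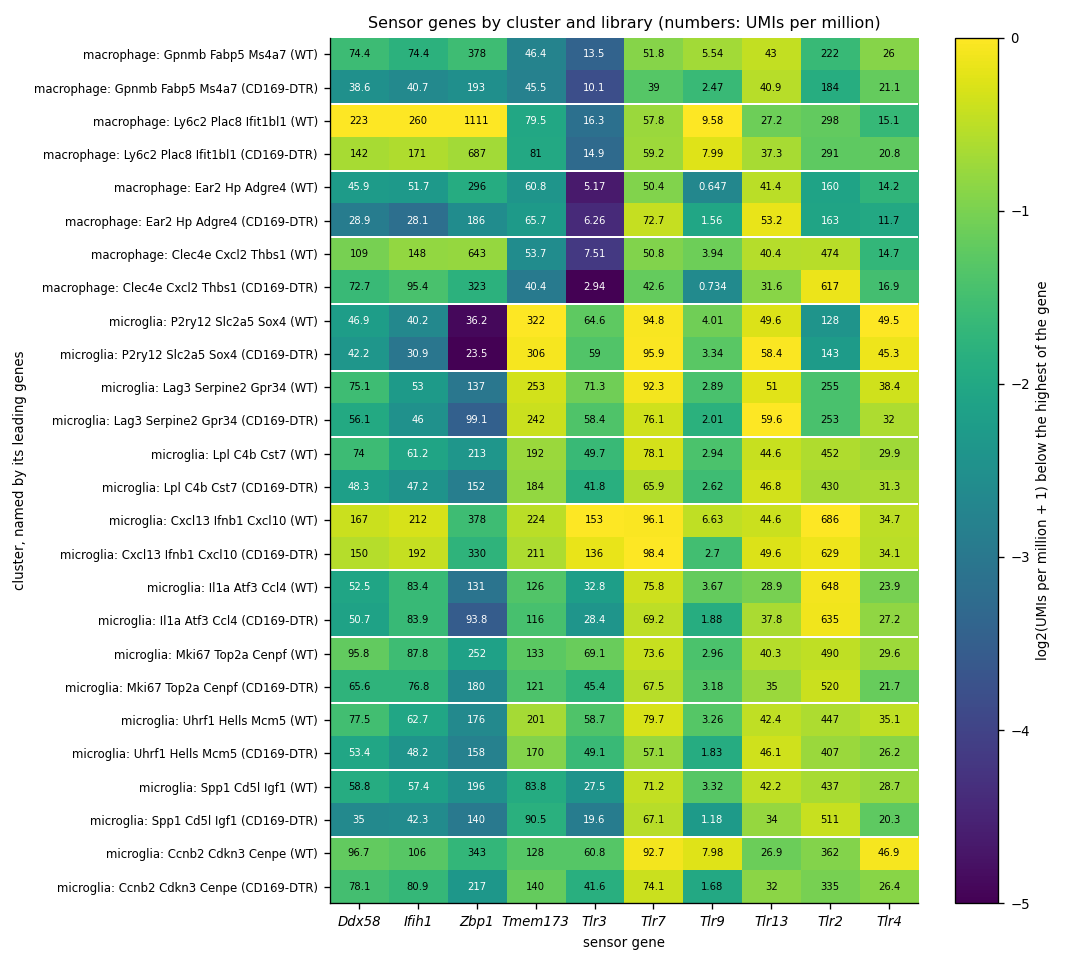
Level of the 10 sensor genes (numbers, CPM) in the 4 macrophage and 9 microglia clusters of each library, colored by log2(CPM + 1) below the highest value of the gene. In WT, Zbp1, Ddx58 and Ifih1 peak in the Ly6c2 macrophages, and in both libraries Tmem173 peaks in the P2ry12 microglia, and the WT row lies above its CD169-DTR row for Zbp1 in all 13 clusters.

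To set the sensors against interferon state, each cell was reduced to 3000 UMIs and the cells of a class, both libraries together, were cut into quartiles by their UMIs of the 29 interferon-stimulated genes. These quartiles are ranges of a score and not cell types, and 9.07% of macrophages and 25.1% of microglia lay within 1 UMI of a cut. Macrophages of the libraries were spread over them unequally: the top quartile (76 UMIs or more) held 611 WT and 48 CD169-DTR cells, 31% and 6.89%, and the lowest (16 UMIs or fewer) 16.3% and 50.1%. In microglia the top quartile held 31.7% of WT and 18.1% of CD169-DTR cells. From the lowest to the top quartile of WT macrophages, Ddx58 was 9.97-fold, Ifih1 8.71-fold and Zbp1 8.62-fold higher, and in CD169-DTR 8.48-fold, 10.7-fold and 8.45-fold. Along the quartiles Zbp1 went from 152 to 386, 823 and 1309 CPM in WT and from 135 to 350.1, 665 and 1139 CPM in CD169-DTR. The Zbp1 levels of the libraries therefore lay closer together at a given quartile than over the whole class, with WT the higher in each.

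Within a quartile of macrophages the WT to CD169-DTR log2 ratio of Ddx58 lay between -0.08 and 0.18, and for Ifih1 between -0.04 and 0.25, with an interval that held 0 in 4 of 4 quartiles for both genes. For Zbp1 it lay between 0.14 and 0.31, above 0 in 4 of 4 quartiles with no interval that held 0. The quartiles did not make the score equal, since its mean within each quartile was higher in WT in both classes. In macrophages this mean was 9.78 UMIs in WT against 7.96 in CD169-DTR in the lowest quartile and 112 against 107 in the top. Its part in the Zbp1 difference was not tested. When the 4 quartiles were given equal weight in both libraries, the ratio in macrophages came to 0.22 for Zbp1, 0.12 for Ddx58 and 0.01 for Ifih1, against 1.18, 1.12 and 1.11 before, Tlr9 turned in sign (-0.12), and 0 of 10 members passed 0.5. In microglia it came to 0.14, 0.17 and -0.01. The weighting was chosen after the data had been seen, and the score and the sensors were read in the same cells.

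Tmem173 and the Toll-like receptors other than the sparse Tlr9 varied less with the score than Ddx58, Ifih1 and Zbp1 in the same class. In microglia Tlr2 was 2.51-fold (WT) and 2.24-fold (CD169-DTR) higher in the top than in the lowest quartile, and Tlr3 2.21-fold and 2.32-fold. Tmem173 went the other way, with a log2 ratio of top over lowest quartile of -0.50 (95% interval -0.59 to -0.41) in WT and -0.60 (95% interval -0.69 to -0.51) in CD169-DTR. Tlr4 was also lower in the top quartile, at -0.34 (95% interval -0.55 to -0.11) and -0.39 (95% interval -0.60 to -0.18). In macrophages Tlr13 was lower in the top quartile of WT, 24.9 against 48.3 CPM, and Tlr9 was higher, 11.9 against 1.09 CPM on 56 and 4 UMIs. Tlr3 in macrophages was 2.92-fold (WT) and 4.11-fold (CD169-DTR) higher in the top than in the lowest quartile, the latter on 11 and 35 UMIs. Tmem173 in macrophages was 0.46 (95% interval 0.19 to 0.74) in WT, opposite in sign to microglia. Within quartiles Tlr2 was lower in WT macrophages in 4 of 4, by log2 ratios of -0.07 (95% interval -0.31 to 0.18) in the top to -0.28 (95% interval -0.42 to -0.14) in the lowest, although the class as a whole was at 0.12.

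**Figure D4:**
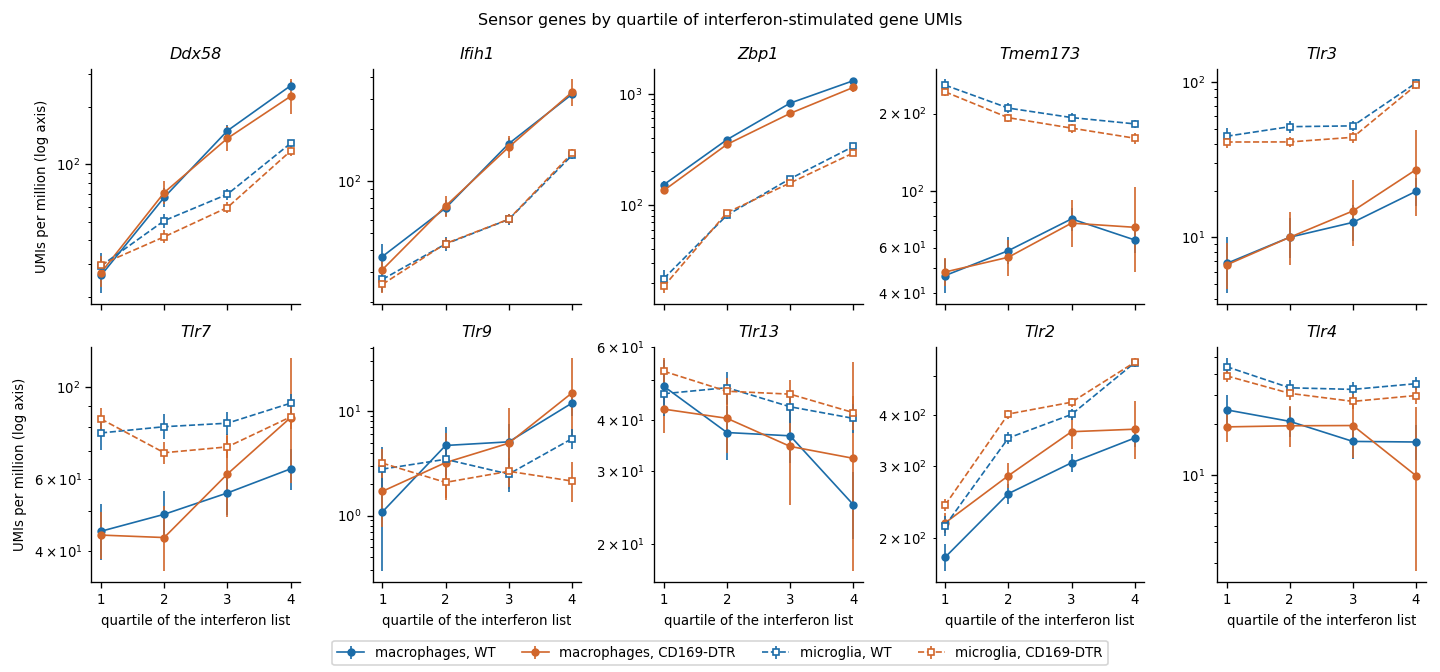
Level of the 10 sensor genes (CPM, log axis with its own range per gene) by quartile of interferon-stimulated gene UMIs at 3000 UMIs per cell, for macrophages (filled circles, solid lines) and microglia (open squares, dashed lines) of WT (blue) and CD169-DTR (orange), with exact 95% counting intervals. The lines of the libraries lie close for Ddx58, Ifih1 and Zbp1 while both climb, with WT above CD169-DTR for Zbp1 in every macrophage quartile. Tmem173 and Tlr4 decline in microglia.

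Because CD169 defines the depleted cells, macrophages were also divided by whether a Siglec1 UMI was among their 3000. WT had 263 cells with (median 6337 UMIs) and 1708 without (8402.5 UMIs), and CD169-DTR 27 and 670. In WT, Ddx58 stood at 170.0 and 127 CPM in cells with and without, a log2 ratio of 0.42 (95% interval 0.25 to 0.59). Zbp1 stood at 756 and 690.3 CPM, a log2 ratio of 0.13 (95% interval 0.05 to 0.21), and Ifih1 at 153 and 154 CPM, a log2 ratio of -0.01 (95% interval -0.19 to 0.16). These differences were smaller than those between the genotypes, and a cell without a Siglec1 UMI at this depth can still express the gene. WT macrophages without a Siglec1 UMI still held 690.3 CPM of Zbp1, against 303 CPM in CD169-DTR macrophages without one. Tlr3 was at 0.57 (95% interval 0.00 to 1.11), and the intervals of the remaining 6 members held 0 in WT. In CD169-DTR the interval left out 0 for Tlr2 alone, at -0.43 (95% interval -0.79 to -0.10).

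Microglia were divided in the same way by the interferon gene Ifnb1, an output of these sensors. WT had 117 cells with an Ifnb1 UMI and CD169-DTR 173, with median depths of 11104 and 11074 UMIs against 7789 and 7971 in cells without. Ifih1 differed most, at 243 and 74.8 CPM in WT cells with and without, a log2 ratio of 1.70 (95% interval 1.54 to 1.86), and at 1.01 (95% interval 0.82 to 1.19) in CD169-DTR. Tlr2 was at 1.00 (95% interval 0.91 to 1.09) in WT and 0.30 (95% interval 0.20 to 0.39) in CD169-DTR, and Zbp1 at 0.69 (95% interval 0.54 to 0.83) and 0.66 (95% interval 0.52 to 0.80). Tmem173 was at -0.06 (95% interval -0.23 to 0.12) and -0.20 (95% interval -0.35 to -0.05) and Tlr7 at -0.09 (95% interval -0.38 to 0.18) and -0.22 (95% interval -0.47 to 0.02). Ddx58 was at 0.64 (95% interval 0.41 to 0.86) and 0.42 (95% interval 0.18 to 0.64). Ifih1, Ddx58, Zbp1 and Tlr2 thus went with an Ifnb1 UMI in both libraries, while Tmem173 and Tlr7 did not. Tlr3 and Tlr9 had an interval above 0 in WT only, with Tlr9 on 14 UMIs in the cells with an Ifnb1 UMI.

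Shares of cells with a UMI, at 3000 UMIs per cell, followed the levels. Zbp1 was seen in 77.4% (95% interval 75.5 to 79.3%) of 1971 WT macrophages and in 51.2% (95% interval 47.4 to 55%) of 697 CD169-DTR macrophages, with 87.1% and 81.5% before thinning. In choroid plexus cells, the class with the lowest level, the share was 3.45% of WT and 0.592% of CD169-DTR, at median depths of 14550 and 12530 UMIs against 7220.5 and 11822 in macrophages. Ddx58 was seen in 32.3% of WT and 15.4% of CD169-DTR macrophages and Ifih1 in 32.5% of WT and 20.4% of CD169-DTR. Tmem173 was seen in 46.9% of WT and 46.1% of CD169-DTR microglia and Tlr2 in 52% of WT and 48.6% of CD169-DTR microglia. In T cells, with no doublets removed, Tlr2 was seen in 8.16% of WT and 5.34% of CD169-DTR cells. The part of free RNA and doublets in these T cell shares was not tested. At least 3 of the 10 sensors were seen in 45.2% of WT and 25.5% of CD169-DTR macrophages, in 42.6% and 34% of microglia and in 2.07% and 0.592% of choroid plexus cells. The thinning left out 305 WT and 38 CD169-DTR macrophages and 191 and 146 microglia with too few UMIs.

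The other genes of the pathways were read from lists that were chosen with earlier results of these data known. Their counts stand against the shares of all genes, 10.5% higher and 10.2% lower in macrophages and 4.63% higher and 5.51% lower in microglia. Of 14 genes measured for RNA sensing and its effectors, 10 were higher in WT macrophages by at least 0.5 and none was lower, with a median log2 ratio of 0.73. Oasl1, an oligoadenylate synthetase-like gene, was among the highest of them at 348 and 131 CPM (1.40) and Dhx58 (LGP2), the third RIG-I-like receptor, stood at 133 and 72.9 CPM (0.86). Mavs, the adaptor of RIG-I and MDA5, was lowest of its list at -0.27 (95% interval -0.57 to 0.04). In microglia 3 of 14 were higher by at least 0.5, with Oas3 at 1.08, Oas1a at -0.15, Dhx58 at 0.36 and Mavs at -0.02, and none was lower. In macrophages the receptors of this route were thus higher in WT and their adaptor was not.

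Of 8 DNA-sensing genes measured, 5 were higher in WT macrophages and 1 was lower, with Dnase1l3, a secreted DNase, highest at 1.80 (95% interval 0.91 to 2.81) on few counts and Enpp1, which degrades the cGAS product, lowest at -0.68 (95% interval -0.98 to -0.37). Mb21d1 (cGAS) stood at 45.9 and 28 CPM (0.71), while Tmem173 stood at 0.18. In microglia 2 of 8 were higher and none lower, with Mb21d1 at 0.22, Dnase1l3 at 1.11 and Enpp1 at -0.07. Of 6 genes of the ZBP1 death pathway, Mlkl, the pore-forming effector, was highest in macrophages at 1.11 (95% interval 0.84 to 1.39), Ripk3 stood at 0.17 and Fadd was lowest at -0.58 (95% interval -0.92 to -0.25), with 2 higher and 1 lower in all. In microglia none of the 6 passed 0.5, with Mlkl at 0.37 on 3.33 and 2.58 CPM, Ripk3 at 0.04 and Casp8 lowest at -0.09.

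The partners of the Toll-like receptors showed no such difference. None of 12 passed 0.5 in macrophages or microglia, with medians of -0.10 and -0.03. Unc93b1, which carries the nucleic acid receptors to endosomes, stood at 596 and 635 CPM in macrophages (-0.09) and 1120.1 and 1167 CPM in microglia (-0.06). Ly96 (MD-2) was highest of them in both classes, at 0.45 and 0.17. Lgmn, a lysosomal protease, was lowest in macrophages at -0.40, and Cd14 stood at -0.36 there and was lowest in microglia at -0.20. Of 18 adaptors, kinases and factors, only Irf7, an interferon-stimulated transcription factor, passed in macrophages, at 1591 and 660.5 CPM, a log2 ratio of 1.27 (95% interval 1.23 to 1.31). In microglia Irf7 (0.63) and the kinase gene Ikbke (0.80) passed. Myd88 stood at 0.34 and -0.04 and Ticam1 (TRIF) at -0.12 and -0.20 in macrophages and microglia, with Irak1 lowest in macrophages (-0.24) and Traf6 in microglia (-0.33). Among the 5 other Toll-like receptors measured, the ratio in macrophages ran from -0.30 for Tlr1 to 0.46 for Tlr8, and in microglia from -0.30 for Tlr5 to 1.60 for Tlr11, which stood at 0.349 and 0.115 CPM.

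Of 11 outputs of the sensors measured in macrophages, 3 were higher and 2 lower in WT by at least 0.5, where 10.5% and 10.2% of all genes were, from Cxcl10 at 2226 and 502 CPM (2.15) to Il12b at -0.67 on 1.03 and 1.64 CPM. In microglia 3 were higher and none lower, with Ccl5 at 861 and 279 CPM (1.62), while Tnfaip3, an NF-κB target, was lowest at -0.44 (95% interval -0.51 to -0.38) and the median of the 11 was -0.31. The early response genes had a median of -0.43 in microglia and 0.24 in macrophages, and their part in the outputs was not tested. Ifnb1 itself stood at 26.7 and 33.7 CPM in microglia, a log2 ratio of -0.34 (95% interval -0.45 to -0.23).

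**Figure D5:**
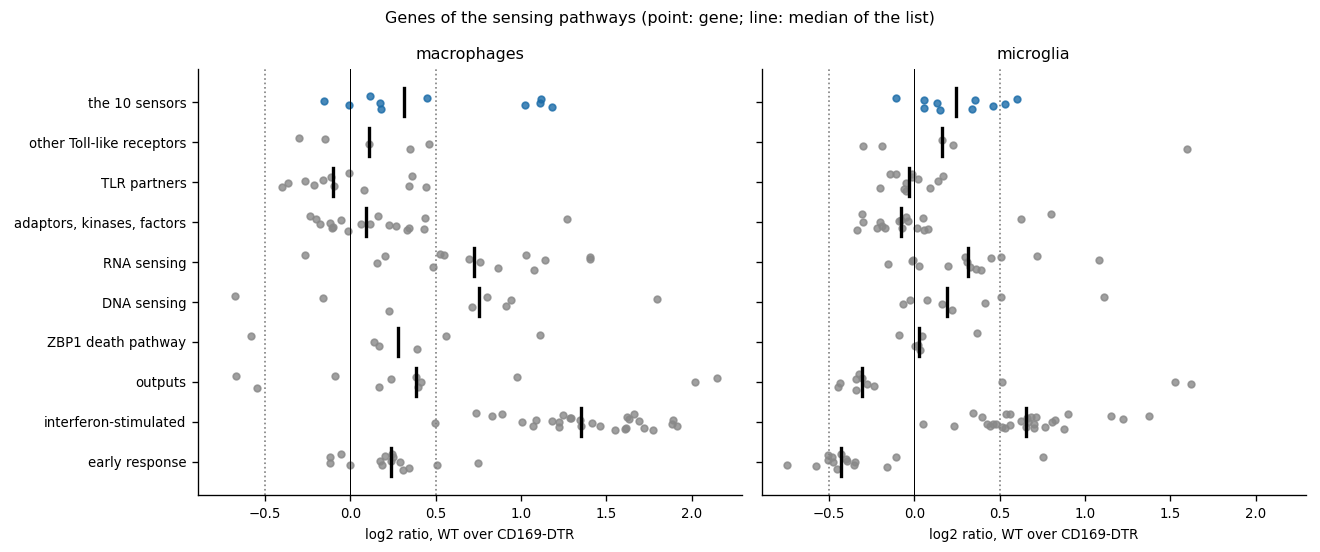
Log2 ratio of WT over CD169-DTR in macrophages and microglia for every measured gene of the sensing pathways (points), the interferon-stimulated and the early response lists, with the median of each list as a black line and dotted lines at 0.5 on either side of 0. The 10 sensors (blue) split into 4 genes near 1 and 6 below 0.5 in macrophages, and RNA-sensing genes lie to the right of Toll-like receptor partners.

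The genes whose pattern was most like that of each member were sought over the 24 levels given by the 12 classes of both libraries, by Pearson correlation of log2(CPM + 10) among 13690 other genes. These are descriptions over points that share 2 libraries. Zbp1 was nearest to Nmi (r = 0.93), Dtx3l (r = 0.92), Rnf114 (r = 0.91), Ifih1 to Ifitm3 (r = 0.91), Ifit2 (r = 0.91), Oasl2 (r = 0.90) and Ddx58 to Parp10 (r = 0.92), Gbp2 (r = 0.85), Ccnl2 (r = 0.85). Tmem173 was nearest to Dock10 (r = 0.88), Tyk2 (r = 0.86), BC017643 (r = 0.86). Tlr2 was nearest to Fcgr3 (r = 0.95), Fcgr4 (r = 0.95), Clec5a (r = 0.93), Tlr4 to Clec5a (r = 0.92), Gm49368 (r = 0.91), Hk3 (r = 0.90) and Tlr13 to Hk3 (r = 0.94), Slc16a3 (r = 0.92), Clec5a (r = 0.92), so that Clec5a was among the nearest genes of Tlr2, Tlr4 and Tlr13. Tlr7 was nearest to Lair1 (r = 0.90), Hivep3 (r = 0.90), Ctsb (r = 0.89), Tlr3 to Trio (r = 0.84), Commd8 (r = 0.84), Zfp282 (r = 0.84) and the sparse Tlr9 to Gm32089 (r = 0.82), Pqlc2 (r = 0.80), 4833427F10Rik (r = 0.78).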

How the data were processed

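The 2 droplet libraries (10x Genomics 3′ kit) were used, with 1 library per genotype, each pooled from 3 mice. The authors aligned reads to mm10 and counted UMIs with Cell Ranger 3.1.0 (file headers), and deposited raw UMI counts for all barcodes, which are whole numbers and not normalized. Barcodes needed 1000 UMIs or more, a floor that is not the study's, and no more than 17% of UMIs from mitochondrial genes, the study's limit for this glioma. Libraries were integrated and clustered in Seurat 5.3.0 (R 4.3.3; the authors used Seurat 3) with 2000 features, none a member, 50 integration and 30 clustering dimensions and resolution 1. Clusters were named from marker lists where at least 3 markers were detected, by a rule set after the clusters had been seen. No doublets were removed. A top 8% of doublet scores (Scrublet in scanpy 1.11.5) was left out only where stated. Free RNA was profiled in barcodes of 10 to 100 UMIs and its amount per droplet estimated, by a rule set after seeing the data, from microglial markers in 697 WT and 276 CD169-DTR T and NK cells of low doublet score.

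UMIs were summed per class and library and scaled to CPM (Python 3.11.15, numpy 2.4.6, scipy 1.17.1). CPM intervals are exact Poisson, those of shares Clopper-Pearson and those of log2 ratios exact conditional, all at 95% and for counting error only; 3′ tag counts do not scale with transcript length, but capture differs between genes. There was no test, since each group is 1 library. Genes entered counts of log2 ratios past 0.5, the fold the study uses, with at least 20 UMIs over both libraries and 1 in each. Shares and states used cells thinned to 3000 UMIs. The ratio and interval code was checked on simulated counts. All members are named; genes of the pathway lists are named where they had the largest or smallest ratio of their list in macrophages or microglia or are defining partners, and the 3 genes most like each member with at least 100 UMIs. The members and lists were chosen with earlier results of these data known. Alternatives are given in the closing section.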

Additional observations from a re-analysis of the deposited data

Results flagged for a closer look

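Tlr2 and Tlr4 had differences between WT and CD169-DTR of opposite sign in different cell classes of the same libraries, each with a counting interval that left out 0. Tlr2 was at a log2 ratio of 0.06 in microglia and 0.12 in macrophages but at -0.58 in Cd209a DCs. These signs depended on the setting, since in macrophages Tlr2 was at -0.12 with equal weight per cluster and -0.13 without the Gpnmb cluster, and in microglia at -0.10 with interferon quartiles weighted equally and -0.0058 without the Cxcl13 cluster. In Cd209a DCs it stayed below 0, at -0.30 with equal weight per cell. Tlr4 was at 0.15 in microglia and -0.76 in Cd209a DCs, but at 0.054 in Cd209a DCs with equal weight per cell, where the opposite sign was lost. The difference between classes was not tested, since each genotype is 1 library.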

How the results depend on the processing

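No paired analysis was possible because each group is 1 library, and no replicate could be left out. The alternatives were cells of at least 2000 UMIs, at most 10% mitochondrial UMIs, removal of the top 8% of doublet scores, no integration, cluster resolution 0.5, median-ratio size factors, subtraction of free RNA, equal weight per cell or per cluster, and leaving out the cell richest in each gene. Under these 10, Zbp1 in macrophages lay between 0.80 and 1.23, Ddx58 between 0.68 and 1.18, Ifih1 between 0.67 and 1.16 and Tlr9 between 0.63 and 1.07, past 0.5 in 10 of 10. The count of 4 members in macrophages stayed at 4 or 5. The count of 2 in microglia became 3 with median-ratio size factors. It became 1 with free RNA subtracted, 1 with equal weight per cluster and 0 at a log2 threshold of 1. Macrophages over microglia in WT gave 7 to 9 members, with 4 higher and 3 lower under size factors and 2 higher and 5 lower with equal weight per cluster.

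Weighting the interferon quartiles equally and leaving out the Gpnmb macrophage or the Cxcl13 microglia cluster were chosen after the data had been seen. With equal quartiles the counts were 0 in macrophages and 0 in microglia, and the medians -0.021 and 0.13. Without the Cxcl13 cluster 1 member passed in microglia, and without the Gpnmb cluster 5 passed in macrophages. Of differences of at least 0.5, signs turned for Tlr9 in macrophages (-0.12) with equal weight per interferon quartile, Tlr4 in Cd209a dendritic cells (0.054) with equal weight per cell, Zbp1 in plasmacytoid dendritic cells (-0.12), Tlr7 in NK cells (-0.50), Tlr13 in endothelial cells (0.33), Tlr2 in choroid plexus cells (0.0094), Tlr7 in choroid plexus cells (0.52) without the top 8% of doublet scores and Tlr7 in endothelial cells (-0.18) with equal weight per cluster. Of smaller differences in macrophages, Tlr2 and Tlr7 turned with equal weight per cluster (-0.12 and -0.018), with equal quartiles (-0.18 and -0.13) and without the Gpnmb cluster (-0.13 and -0.074). Tmem173 turned with equal weight per cell (-0.039) and equal quartiles (-0.017), Tlr3 with equal quartiles (-0.26), and Tlr4 lay on either side of 0. In microglia Tlr2 (-0.10) and Ifih1 (-0.014) turned with equal quartiles and Tlr2 (-0.0058) without the Cxcl13 cluster. Small differences in other classes turned too. The causes were not tested. Of the shares of cells with a UMI, 143 left their counting interval when thinned to 1500 UMIs and 166 without thinning, settings that change the depth itself. Sparse genes set the limit: Tlr9 and the classes of few CD169-DTR cells rest on few UMIs, and no value here covers variation between mice.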
